A study of Mus musculus with 6 samples.

Results

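The 10 genes Txnip, Arrdc4, Mlx, Mlxip, Gfpt1, Gfpt2, Ogt, Akr1b3, Sord and G6pc2 belong to the pathways through which a cell registers or diverts excess glucose. They were chosen by symbol, taking the locus with the highest mean expression where a symbol had several, and all 10 were found, each as a single locus of its own, among the 24469 loci of the table. Messenger RNA was measured by paired-end RNA-Seq of poly(A) RNA in 6 libraries of a conditionally immortalized mouse podocyte cell line, which was expanded at 33 °C with interferon gamma and differentiated for 10 days at 37 °C without it. Cells of all groups were starved of serum for 12 h and then kept for 12 h in 25 mM glucose. The HG group (n = 2) received no growth factor before high glucose. The rFGF1WT group (n = 2) was exposed for 1 h beforehand to 100 ng/mL recombinant wild-type FGF1, and the rFGF1ΔHBS group (n = 2) to the same dose of an FGF1 carrying substitutions in its heparan sulfate-binding site, designed as a partial agonist. No library in normal glucose or in mannitol was analysed here, so the comparisons concern FGF1 within high glucose and not high glucose itself.

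Glucose that enters a cell is phosphorylated to glucose-6-phosphate, and part of it leaves glycolysis by side routes. The Mondo transcription factor Mlxip binds DNA with its partner Mlx when glucose-6-phosphate is plentiful and drives Txnip and Arrdc4, related alpha-arrestins that lower glucose uptake. The hexosamine route, entered through Gfpt1 or Gfpt2, ends in the sugar donor that Ogt attaches to proteins, and the polyol route reduces glucose to sorbitol with the aldose reductase Akr1b3 and oxidizes sorbitol to fructose with Sord. Overuse of both routes is a long-standing theme in the biology of the diabetic kidney.

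The promoters of Txnip and Arrdc4 are shown because both genes are textbook targets of Mlxip and Mlx. Windows from 250 bases before to 50 bases after the annotated start came from RefSeq (GRCm38.p6) and were found for 9 of the 10 genes, Akr1b3 being the exception. The stretches below run 5′ to 3′ on the strand of the gene, and capitals mark the letters searched on both strands, which are the E-box CACGTG, its variant CACGAG, and the forkhead-type motif GTAAACA.

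Txnip chr3:96557807-96557946 (+): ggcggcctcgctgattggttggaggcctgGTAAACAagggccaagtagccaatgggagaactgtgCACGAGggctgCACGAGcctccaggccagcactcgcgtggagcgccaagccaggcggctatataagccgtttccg

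Arrdc4 chr7:68749349-68749488 (-): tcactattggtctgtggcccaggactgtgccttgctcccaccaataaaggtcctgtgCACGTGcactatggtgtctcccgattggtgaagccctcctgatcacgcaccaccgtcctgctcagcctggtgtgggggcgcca

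In the Txnip stretch, which covers 140 bases from -150 onward, CACGAG stood at -85 to -80 and again at -74 to -69. Such a pair of CACGNG boxes 5 bases apart is the arrangement of a carbohydrate response element, and it was present in 16 of 32851 promoter windows (0.0487%). GTAAACA lay at -121 to -115 of the same promoter and in 3.65% of all windows. The Arrdc4 stretch covers 140 bases from -250 onward and holds a single CACGTG at -193 to -188, a motif of 7.15% of windows, against 6.47% for CACGAG. Mlx also had a CACGTG, at -40 to -35, and GTAAACA was found once in the windows of Gfpt1, at -215 to -209, and Gfpt2, at -200 to -194. None of these letters occurred in the windows of Mlxip, Ogt, Sord and G6pc2. A match of letters is a description of the sequence only.

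Expression is given as FPKM (fragments scaled to transcript length and library size), the unit deposited by the authors, and differences are on the scale of log2(FPKM + 1) from a limma fit of all 6 libraries over the 10562 loci that averaged at least 1 FPKM. A gene was called past the threshold when its Benjamini-Hochberg adjusted p, over all loci tested, was under 0.05 and it differed at least 2-fold. Of the 10 genes 8 entered this fit, whereas G6pc2 and Gfpt2 lay below the filter. The labels do not state whether the 2 libraries of a group came from separate cultures, so the p-values measure only the spread between these libraries, which may be technical.

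FPKM summed to between 179594 and 185168 per library, and Pearson's r of log2(FPKM + 1) between libraries was 0.916 to 0.923 within groups and 0.895 to 0.924 between groups. Read depth was not given. Low values of loci with 1 transcript (3892 to 4047 per library) clustered at the multiples of a fine step and more strongly at those of a coarse step 2 times as wide. Of these values 45.6% to 47.6% lay within 0.1 of a fine step from its multiples (20% if spread evenly), and 29.2% to 30.8% lay as close to those of the coarse step (10% if spread evenly). Taking the coarse step as 1 read pair, which is an assumption, gave an inferred depth of 22300000 to 23200000 read pairs per library. The coarse step was sought only within a narrow preset range, so the depth could not have come out far from these values. It was also chosen as the step with most of these same low values near it, which raises the percentages above. If the fine step were 1 pair, this depth and the numbers of read pairs given for single genes would be 2 times as large. The ERK-responsive genes Spry4 and Etv4 rose with rFGF1WT by 1.29 and 2.83 log2 units (limma adjusted p = 0.0130 and 0.0102). With rFGF1ΔHBS they rose by 1.32 and 2.74 (adjusted p = 0.0140 and 0.0115). Both were below 0.1 FPKM in HG, where the added 1 shrinks a difference. Their mean FPKM was 27.34 and 98.55 times that of HG with rFGF1WT, and 28.22 and 90.01 times with rFGF1ΔHBS. Dusp6 was 1.34 and 2.0 higher without passing (adjusted p = 0.179 and 0.0882). Of 10 podocyte markers, 9 were found and 6 tested, with a summed level of 304.9 to 317.2 FPKM in HG, 354.8 to 361.9 with rFGF1WT and 343.1 to 351.4 with rFGF1ΔHBS. The defining marker Wt1 was at 0.0104 to 0.0731 FPKM, so the labelled cell type rests on Podxl, Cd2ap, Synpo and Actn4, which other cells also express. Endothelial markers summed to at most 0.164 FPKM. The mesangial markers were mixed, with Pdgfrb at 26.1 to 32.7 FPKM and Acta2 at 10.84 to 17.65, but Des at most 0.161 and Itga8 at most 0.0389. Of the leukocyte markers, Ptprc and Adgre1 were at most 0.0548 FPKM, while Cd68 could not be read apart from Eif4a1, with which it shared a locus.

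In high glucose alone, Txnip had the highest mean of the 10 genes at 64.4 ± 3.09 FPKM (SD, n = 2), followed by Sord at 22.3 ± 0.641, Ogt at 18.6 ± 3.38 and Akr1b3 at 13.3 ± 0.316. The ranges of neighbours in this order did not overlap down to Akr1b3. Akr1b3, Gfpt1 at 12.9 ± 7.05, Mlxip at 8.33 ± 0.552 and Mlx at 8.15 ± 2.51 then formed a chain in which each overlapped the next. Arrdc4 at 2.05 ± 0.147, G6pc2 at 0.948 ± 0.0219 and Gfpt2 at 0.0233 and 0.00399 FPKM closed the order, each below the one before. With either FGF1 protein Txnip still ranked first and Ogt second, whereas Sord moved from rank 2 to rank 6 with rFGF1WT. With rFGF1ΔHBS Sord moved to rank 4, where its range overlapped those of Gfpt1, Mlx and Akr1b3.

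**Figure D1:**
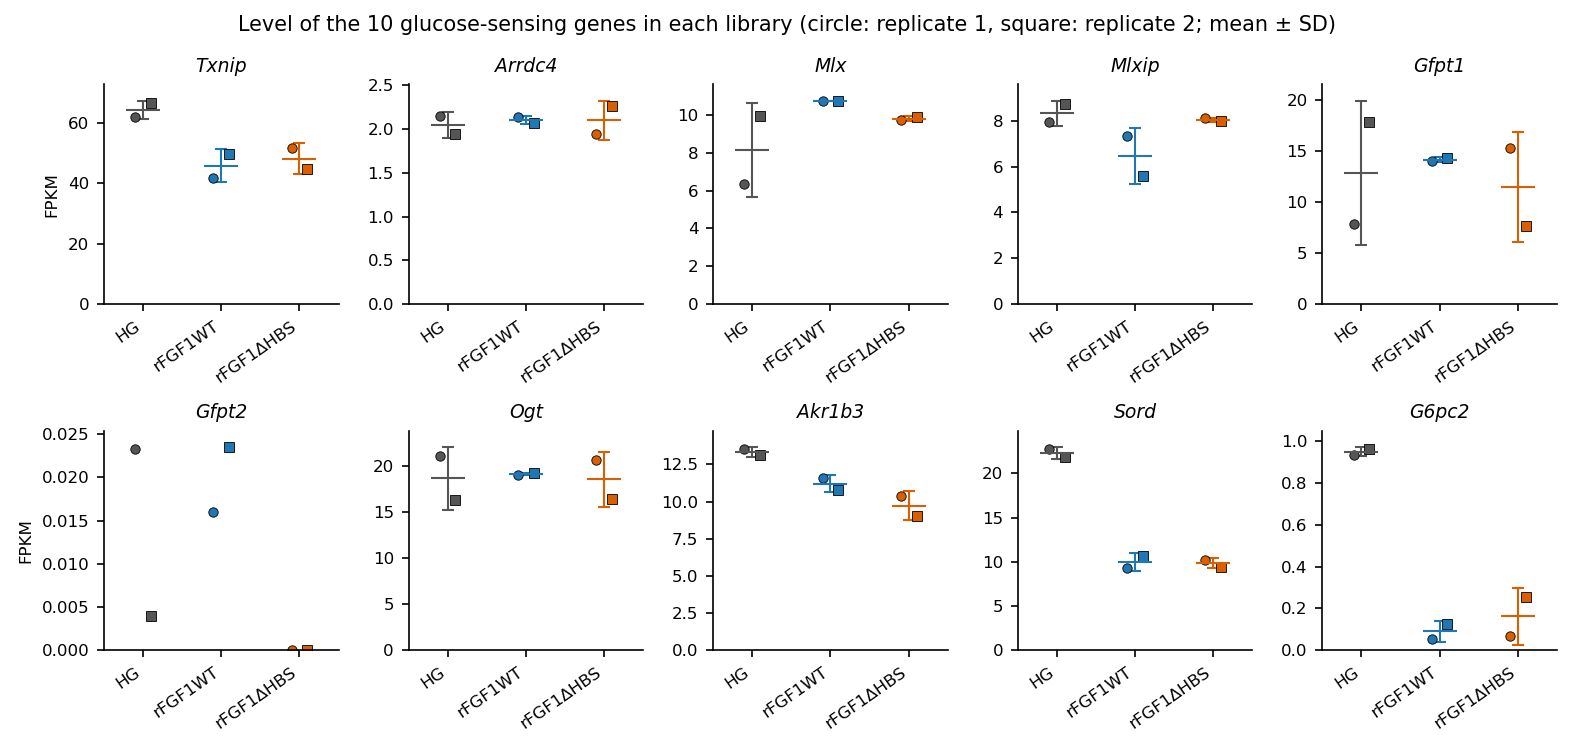
Each panel plots the FPKM of 1 gene (vertical axis, from 0) in the 2 libraries of each group, with the mean and SD as a bar and whiskers, except for Gfpt2, where some libraries are at 0. Sord sits at 21.9 to 22.8 FPKM in HG and at 9.30 to 10.7 with either FGF1 protein, Txnip, Akr1b3 and G6pc2 are lower in all 4 FGF1 libraries than in both HG libraries, and Gfpt1 spreads from 7.88 to 17.8 in HG and from 7.65 to 15.3 with rFGF1ΔHBS.

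Sord, sorbitol dehydrogenase, fell past the threshold with both proteins. It was the only 1 of the 8 tested that did so with rFGF1WT, where 1.01% of all loci tested passed in either direction and 0.492% passed as lower. It was likewise the only 1 of 8 with rFGF1ΔHBS, where 0.899% of loci passed and 0.445% passed as lower. No other tested gene of the 10 reached an adjusted p under 0.05 whatever its fold, a criterion met by 6.19% of loci with rFGF1WT and 6.26% with rFGF1ΔHBS. Both comparisons use the same 2 HG libraries. G6pc2 and Gfpt2, below the filter, averaged under 1 FPKM in HG, where with 1 added a fall cannot reach 2-fold.

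Sord (chr2:122234749-122265340, + strand, GRCm38) measured 22.8 and 21.9 FPKM in HG, 9.30 and 10.7 with rFGF1WT, and 10.3 and 9.45 with rFGF1ΔHBS. The HG libraries were both more than double any library that had received FGF1, and the libraries of the 2 proteins overlapped. Mean Sord fell by 55.2% with rFGF1WT, a log2 difference of -1.09 (SE 0.09, 95% interval -1.33 to -0.85, limma adjusted p = 0.0143). With rFGF1ΔHBS it fell by 55.9%, a log2 difference of -1.10 (SE 0.09, interval -1.34 to -0.87, limma adjusted p = 0.0150). The 2 proteins differed by -0.02 (rFGF1ΔHBS minus rFGF1WT, interval -0.26 to 0.22, limma adjusted p = 1). In bulk RNA, fewer cells that express a gene and less of its RNA per cell cannot be told apart. The locus holds a single transcript of 2352 nucleotides, so at the inferred depth its values correspond to about 1233 and 1152 read pairs in HG and to between 489 and 572 in the FGF1 libraries.

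Leaving out either HG library ended the call for Sord. Without HG replicate 1 the log2 differences were -1.06 and -1.08 for rFGF1WT and rFGF1ΔHBS (limma adjusted p = 0.0715 and 0.0744), and without HG replicate 2 they were -1.11 and -1.13 (adjusted p = 0.0620 and 0.0628). Without rFGF1WT replicate 1 the difference was -0.99 (adjusted p = 0.0489), which is less than 2-fold, and without rFGF1ΔHBS replicate 1 or 2 the differences were -1.16 and -1.05 (adjusted p = 0.0601 and 0.0682). Markers of the proximal tubule were lower in the same libraries. Of 3 such markers 2 were found, and Aqp1 and Lrp2 summed to 61.6 to 73.3 FPKM in HG, 44.1 to 47.6 with rFGF1WT and 40.5 to 49.7 with rFGF1ΔHBS, neither passing the test. Their part in the result was not tested.

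Akr1b3, the aldose reductase that precedes Sord in the polyol route (chr6:34302434-34317478, - strand), measured 13.6 and 13.1 FPKM in HG, 11.6 and 10.8 with rFGF1WT, and 10.4 and 9.05 with rFGF1ΔHBS. The 3 groups did not overlap, with HG highest and rFGF1ΔHBS lowest. Neither comparison with HG passed, at -0.23 for rFGF1WT (SE 0.09, interval -0.46 to -0.00, limma adjusted p = 0.198) and -0.42 for rFGF1ΔHBS (SE 0.09, interval -0.65 to -0.19, adjusted p = 0.0707). The difference between the proteins was -0.19 (interval -0.42 to 0.04, adjusted p = 0.905), so an order of the 2 proteins was not shown.

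Both libraries of the group with FGF1 lay beyond both HG libraries for 5 of the 8 tested genes with rFGF1WT, Txnip, Mlxip, Akr1b3 and Sord lower and Mlx higher, and for 3 with rFGF1ΔHBS, Txnip, Akr1b3 and Sord, all lower. Such a lack of overlap was common, at 58.2% of all loci with rFGF1WT and 57.3% with rFGF1ΔHBS. The median log2 difference of the 8 genes was -0.10 with rFGF1WT and -0.08 with rFGF1ΔHBS, beside -0.04 and -0.04 over all loci.

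**Figure D2:**
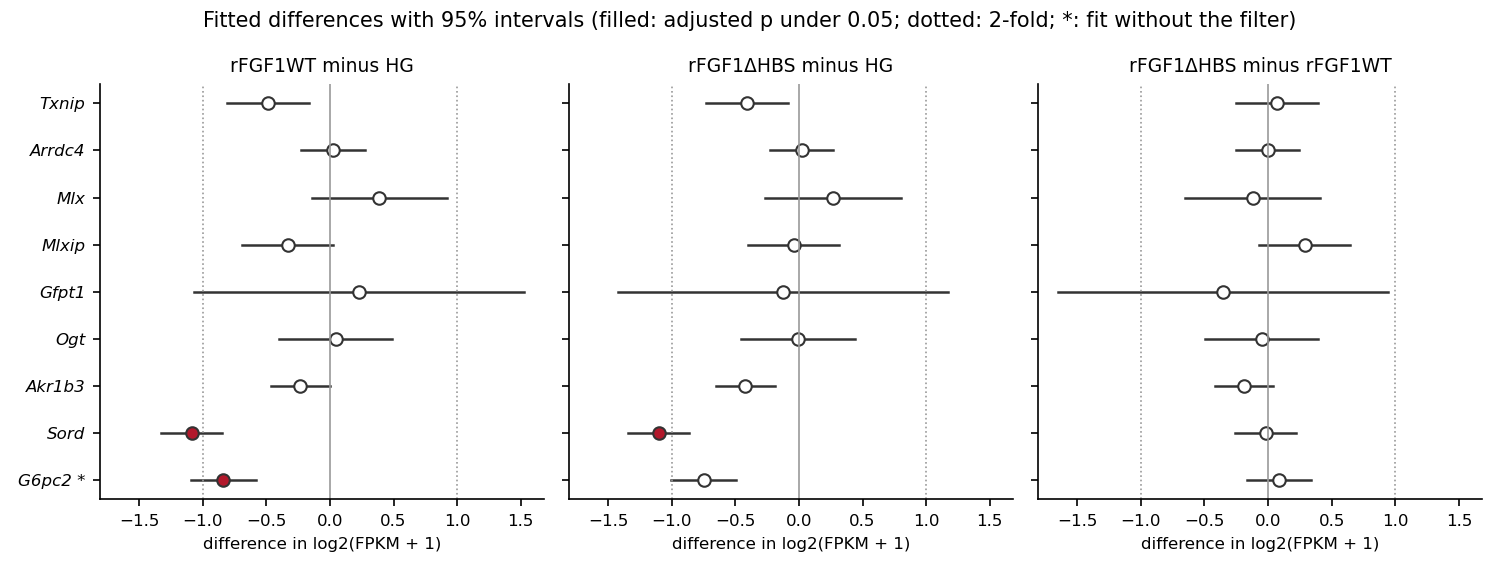
Points are fitted differences in log2(FPKM + 1) for 9 genes in 3 comparisons, lines are 95% intervals, and filled points have an adjusted p under 0.05. Sord is filled on the left of both comparisons with HG, G6pc2 in the comparison of rFGF1WT with HG alone, and no point is filled between the 2 proteins.

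Txnip, which binds thioredoxin and promotes the removal of glucose transporters from the membrane (chr3:96557957-96561883, + strand), measured 62.2 and 66.5 FPKM in HG, 42.0 and 49.8 with rFGF1WT, and 51.8 and 44.7 with rFGF1ΔHBS. All 4 FGF1 libraries were below both HG libraries, and the 2 proteins overlapped. The mean differed by -28.7% with rFGF1WT (log2 difference -0.48, SE 0.12, interval -0.81 to -0.16) and by -25.0% with rFGF1ΔHBS (-0.41, SE 0.12, interval -0.73 to -0.09). Neither passed the test over all loci (limma adjusted p = 0.102 and 0.133). Between the proteins the difference was 0.07 (interval -0.25 to 0.40, adjusted p = 0.968).

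Arrdc4, the alpha-arrestin closest to Txnip (chr7:68736995-68749241, - strand), measured 2.15 and 1.95 FPKM in HG, 2.13 and 2.07 with rFGF1WT, and 1.94 and 2.26 with rFGF1ΔHBS. The 3 groups overlapped throughout. Its log2 differences from HG were 0.02 with each protein (SE 0.09 in both, intervals -0.22 to 0.27 and -0.23 to 0.27, limma adjusted p = 0.899 and 0.915). The lower end of both intervals lies above the fitted difference of Txnip, but the intervals of the 2 genes overlap. The added 1 also shrinks a difference more at the low level of Arrdc4 than at that of Txnip. Whether the 2 genes differed was not itself tested. Between the proteins Arrdc4 differed by -0.0023 (interval -0.25 to 0.25, adjusted p = 1).

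Mlxip, the Mondo factor also called MondoA (chr5:123394798-123457932, + strand), measured 7.94 and 8.72 FPKM in HG, 7.35 and 5.59 with rFGF1WT, and 8.12 and 7.99 with rFGF1ΔHBS. It was lower in both rFGF1WT libraries than in the other 4, with log2 differences from HG of -0.33 and -0.04 (limma adjusted p = 0.225 and 0.883). The difference with rFGF1WT was -0.50 without rFGF1WT replicate 1 and -0.16 without rFGF1WT replicate 2. Its partner Mlx (chr11:101087277-101092207, + strand) measured 6.37 and 9.92 FPKM in HG, 10.7 and 10.8 with rFGF1WT, and 9.71 and 9.90 with rFGF1ΔHBS. The low first HG library set most of the spread of Mlx, and the log2 differences of 0.39 and 0.27 did not pass (adjusted p = 0.319 and 0.469). Without that library they were 0.11 and -0.015. Mlxipl, the Mondo factor of liver, was at 0 to 0.00793 FPKM.

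The 3 loci whose values followed those of Txnip most closely over the 6 libraries, among 10272 loci above 0 in every library, were Lrig2, Trp53bp2 and Ackr3, with Pearson's r of 0.994, 0.994 and 0.993 on log2(FPKM + 1). For Arrdc4 they were a merged locus of Foxp1 and Eif4e3 among others at 0.986, and Fbxl2 and 4931406P16Rik at 0.981 each. Among the 10 genes, Txnip had an r of 0.936 with Sord and -0.51 with Arrdc4. These are descriptions over 6 libraries that share their groups and their sequencing.

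Gfpt1, the enzyme that commits fructose-6-phosphate to the hexosamine route (chr6:87042846-87092197, + strand), measured 7.88 and 17.8 FPKM in HG, 14.0 and 14.3 with rFGF1WT, and 15.3 and 7.65 with rFGF1ΔHBS. The 2 HG libraries differed more from each other than any pair of group means, and the rFGF1ΔHBS libraries did likewise. Log2 differences were 0.23 with rFGF1WT (SE 0.48, interval -1.07 to 1.52, limma adjusted p = 0.807) and -0.13 with rFGF1ΔHBS (SE 0.48, interval -1.42 to 1.17, adjusted p = 0.907). A 2-fold change in either direction therefore lies within both intervals.

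Gfpt2, the second form of that enzyme (chr11:49794178-49838613, + strand), was barely detected, at 0.0233 and 0.00399 FPKM in HG and 0.0160 and 0.0235 with rFGF1WT. It is listed at 0 in both rFGF1ΔHBS libraries. At the inferred depth these values stand for 0 to 2 read pairs per library, so no difference was detectable. Ogt, which attaches N-acetylglucosamine to proteins of nucleus and cytosol (chrX:101640060-101684351, + strand), measured 21.0 and 16.3 FPKM in HG, 19.0 and 19.2 with rFGF1WT, and 20.7 and 16.4 with rFGF1ΔHBS. The groups overlapped, with log2 differences from HG of 0.04 and -0.0066 (SE 0.17 in both, intervals -0.40 to 0.49 and -0.45 to 0.44, limma adjusted p = 0.898 and 0.992).

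G6pc2, a glucose-6-phosphatase known from the islets of the pancreas (chr2:69211073-69227841, + strand), measured 0.932 and 0.963 FPKM in HG, 0.0563 and 0.126 with rFGF1WT, and 0.0669 and 0.257 with rFGF1ΔHBS. Both HG libraries stood well above all 4 libraries with FGF1. The study also names this gene and reports it as reduced by either protein in real-time PCR. That PCR followed up a PI3K/AKT pathway result of its RNA-Seq, and how G6pc2 was picked within the pathway is not stated. At the inferred depth, and depending on which of its 3 transcripts carried the reads, the HG values stand for 12 to 41 read pairs and the others for 1 to 11.

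In a fit without the filter over 24469 loci, where 1.66% of loci with rFGF1WT and 1.58% with rFGF1ΔHBS had an adjusted p under 0.05, G6pc2 was lower by a log2 difference of -0.84 with rFGF1WT (SE 0.09, interval -1.09 to -0.58, limma adjusted p = 0.0453). With rFGF1ΔHBS it differed by -0.75 (SE 0.09, interval -1.0 to -0.50, adjusted p = 0.0548). Since 1 is added to values below 1, this scale understates the difference, and even a fall to 0 would be less than 2-fold on it. Mean FPKM of G6pc2 in HG was 10.38 times that with rFGF1WT and 5.854 times that with rFGF1ΔHBS. With 0.1 added the log2 differences were -2.48 and -2.10 (limma adjusted p = 0.113 and 0.144). The call with rFGF1WT was lost when any 1 of the 6 libraries was left out (adjusted p = 0.0737 to 0.151), and also after quantile normalization (0.0529), with only the 4 libraries compared (0.0773) and with the robust variance model (0.0616). A call with rFGF1ΔHBS was gained without rFGF1ΔHBS replicate 2 (adjusted p = 0.0495), over only the loci above 0 in all 6 libraries (0.0305) and without the variance trend (0.0453). Of 5 islet beta cell markers only Nkx6-1 was found, at 0.0357 to 0.140 FPKM.

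Between rFGF1ΔHBS and rFGF1WT, the 1 pair of related proteins compared, 0 of the 8 tested genes passed the limma test, and none of the 10 had an unadjusted p under 0.05. Over all loci 0.35% passed the threshold, 0.549% had an adjusted p under 0.05, and 514 loci had an unadjusted p under 0.05. For 3 of the 8 genes the libraries of the 2 proteins did not overlap, Mlx and Akr1b3 being lower and Mlxip higher with rFGF1ΔHBS, against 34.5% of all loci. The largest fitted difference of the 8 was -0.35 for Gfpt1 (interval -1.65 to 0.94), followed by 0.29 for Mlxip (interval -0.07 to 0.64). On the scale of log2(FPKM + 1), a difference is bounded most closely for Sord, Arrdc4, Txnip and Akr1b3, whose intervals stay within 0.42 log2 units of 0. The added 1 narrows the interval of Arrdc4 most of these, at its low level, and the spread behind all of them may be technical.

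The other genes of these pathways were read from 7 lists holding 44 further symbols, of which 42 were found and 35 tested. With each protein limma called 1 of the 35 past the threshold as higher and 0 as lower, beside 1.01% and 0.899% of all loci. At an unadjusted p under 0.05 there were 12 of the 35 with rFGF1WT, 8 of them lower, and 15 with rFGF1ΔHBS, 10 of them lower, beside 24.8% and 24.9% of all loci. At an adjusted p under 0.05 without a fold limit, 1 was higher and 3 were lower with rFGF1WT, and 1 was higher and 2 were lower with rFGF1ΔHBS, beside 6.19% and 6.26% of all loci. Between the proteins 0 passed either criterion and 1 had an unadjusted p under 0.05, beside 4.87% of all loci. Their median log2 difference was -0.07 with rFGF1WT and -0.06 with rFGF1ΔHBS.

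**Figure D3:**
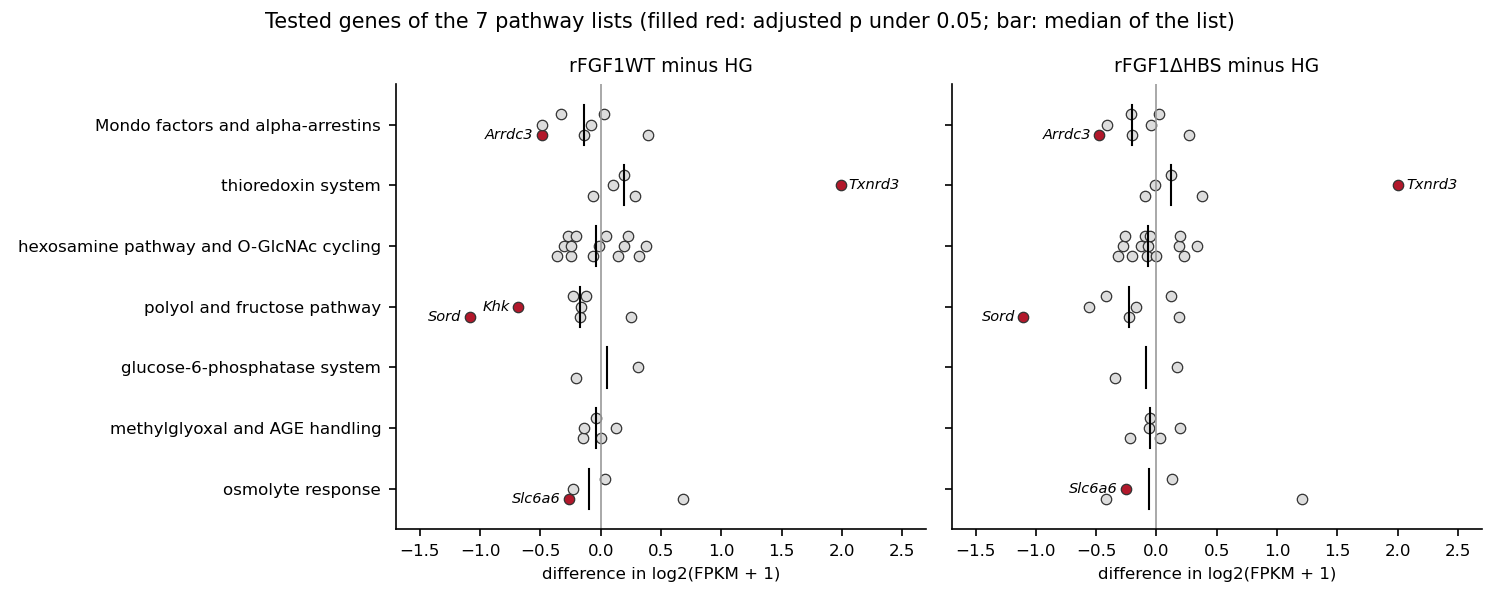
Points are the tested genes of each pathway list at their difference in log2(FPKM + 1) from HG, with red for an adjusted p under 0.05 and a vertical bar for the median of the list. Txnrd3 stands apart at 1.99 and 2.0 in the 2 panels, Sord is the lowest at -1.09 and -1.10, and the hexosamine list holds no red point.

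Txnrd3, a thioredoxin and glutathione reductase known mainly from testis, rose with both proteins. It measured 5.93 and 5.82 FPKM in HG, 27.9 and 24.7 with rFGF1WT, and 27.1 and 26.0 with rFGF1ΔHBS. All FGF1 libraries were more than 4 times the HG libraries, with log2 differences of 1.99 (SE 0.08, limma adjusted p = 0.00345) and 2.0 (SE 0.08, adjusted p = 0.00392). Of the 5 genes of the thioredoxin system, the partners that Txnip binds and their reductases, the other 4 did not pass. Txn1, cytosolic thioredoxin, measured 76.3 to 88.4 FPKM in HG and 77.1 to 90.2 with FGF1. Txnrd1, the cytosolic reductase, which was picked out after its values were seen, measured 18.8 and 19.0 FPKM in HG, 23.6 and 22.7 with rFGF1WT and 23.6 and 26.0 with rFGF1ΔHBS, with log2 differences of 0.28 and 0.38 (adjusted p = 0.0949 and 0.0537).

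In the list of Mondo factors and alpha-arrestins, 7 of 8 genes were tested and 1, Arrdc3, had an adjusted p under 0.05. Arrdc3, an alpha-arrestin that acts in receptor trafficking, measured 5.88 and 5.51 FPKM in HG, 3.55 and 3.99 with rFGF1WT, and 3.71 and 3.92 with rFGF1ΔHBS. It fell by 0.49 and by 0.48 log2 units (SE 0.08 in both, limma adjusted p = 0.0479 and 0.0499), with all 4 FGF1 libraries below both HG libraries. The call was lost with each library left out (adjusted p = 0.0821 to 0.178 over both comparisons), and in both comparisons without the filter (0.10 and 0.102), after median-ratio scaling (0.0606 and 0.0628) or quantile normalization (0.0649 and 0.0651), and with only the 4 libraries compared (0.0969 and 0.0821). Arrdc1, another alpha-arrestin, measured 9.31 and 11.0 FPKM in HG and 8.30 to 9.20 with FGF1, and did not pass (adjusted p = 0.435 and 0.260).

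The polyol and fructose list had 7 of 9 genes tested, with Sord past the threshold in each comparison and Khk added at the adjusted p alone with rFGF1WT. Khk, the ketohexokinase that phosphorylates the fructose made by Sord, measured 7.43 and 7.18 FPKM in HG, 4.58 and 3.77 with rFGF1WT, and 4.69 and 4.56 with rFGF1ΔHBS. It was lower in all 4 FGF1 libraries, falling by 0.69 log2 units with rFGF1WT (SE 0.10, limma adjusted p = 0.0346) and differing by -0.56 with rFGF1ΔHBS (SE 0.10, adjusted p = 0.0502). The rFGF1WT call was lost with each library left out (adjusted p = 0.0564 to 0.140), without the filter (0.0684) and with only the 4 libraries compared (0.0865), and a call with rFGF1ΔHBS was gained over only the loci above 0 in all 6 libraries (0.0480). The median log2 difference of the list was -0.17 with rFGF1WT and -0.23 with rFGF1ΔHBS. Akr1a1, an aldehyde reductase, was the most abundant gene of the list at 71.0 to 106.8 FPKM, and its groups overlapped (adjusted p = 0.729 and 0.737). Among the aldose reductase-like enzymes, Akr1b7 was at most 0.169 FPKM, Akr1b8 lay at 11.6 to 16.4 and Akr1b10 at 5.35 to 6.41. Akr1b8 was fitted higher by 0.25 with rFGF1WT and 0.18 with rFGF1ΔHBS (limma adjusted p = 0.370 and 0.497). Akr1b10 differed by -0.17 with each protein (adjusted p = 0.182 in both).

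**Figure D4:**
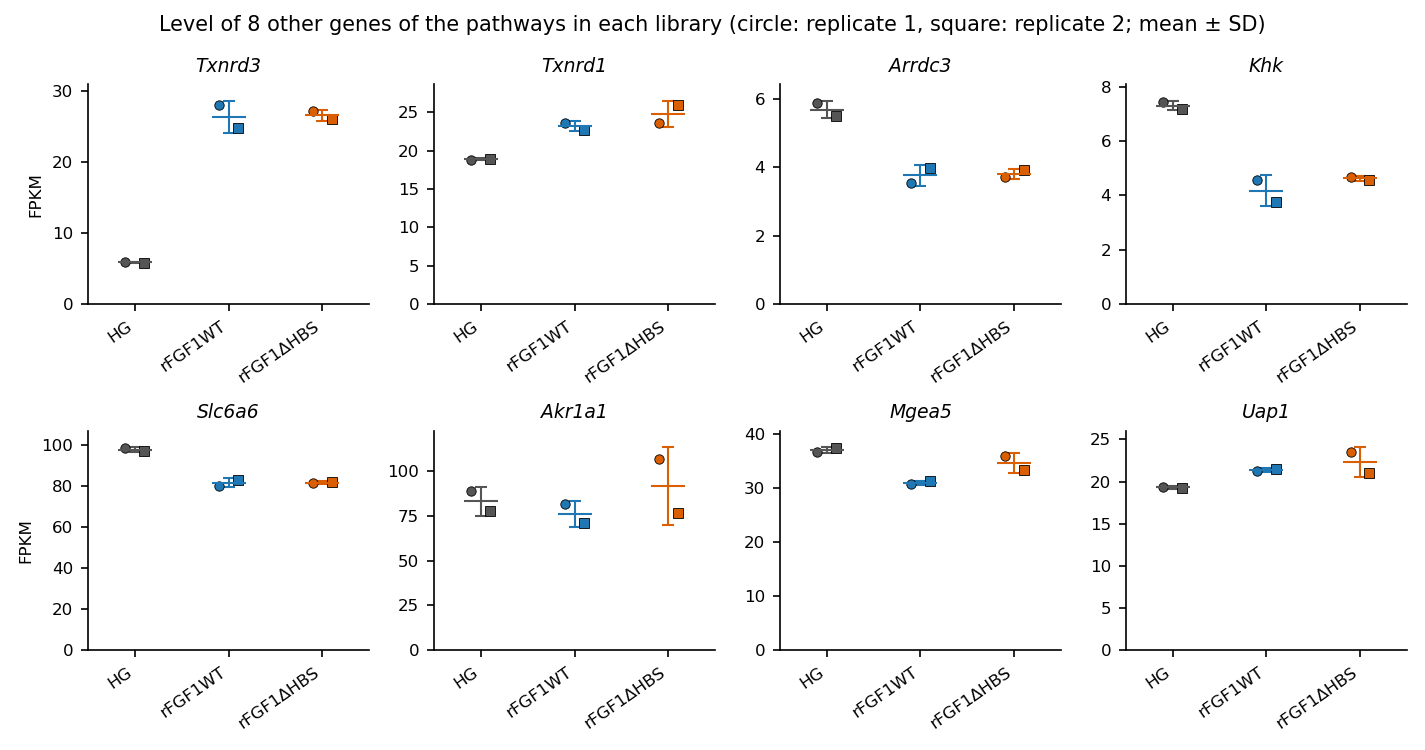
Each panel plots the FPKM of 1 further pathway gene (vertical axis, from 0) in the 2 libraries of each group, with the mean and SD. Txnrd3 lies at 5.82 to 5.93 FPKM in HG and 24.7 to 27.9 with FGF1, Khk and Arrdc3 lie lower with both proteins, and Akr1a1 overlaps between groups.

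In the list of the hexosamine route and O-GlcNAc cycling, 14 of 16 symbols were tested and 0 passed in any comparison by limma, with medians of -0.04, -0.07 and 0.02 for rFGF1WT against HG, rFGF1ΔHBS against HG and the 2 proteins against each other. At an unadjusted p under 0.05 there were 6, 6 and 1 of the 14, beside 2616, 2632 and 514 of the 10562 loci. Among the 14, Amdhd2 shared a locus with Atp6v0c and Tbc1d24, and Renbp with L1cam, Arhgap4 and Naa10. Mgea5, listed under this older symbol of the O-GlcNAcase that removes what Ogt adds, measured 36.7 and 37.5 FPKM in HG, 30.7 and 31.3 with rFGF1WT, and 35.9 and 33.3 with rFGF1ΔHBS. It was lowest in the rFGF1WT libraries, at a log2 difference of -0.25 (adjusted p = 0.0891), and differed by -0.10 with rFGF1ΔHBS (adjusted p = 0.376). Uap1, which makes the UDP-sugar at the end of the route, measured 19.4 and 19.2 FPKM in HG and 21.1 to 23.6 with FGF1, and did not pass (adjusted p = 0.306 and 0.184).

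The remaining lists held 1 call. Of the glucose-6-phosphatase system, G6pc3 and the transporter Slc37a4 were tested and neither passed by limma (0 and 1 at an unadjusted p under 0.05), at 2.79 to 4.93 and 2.59 to 3.90 FPKM. Of 6 genes listed for methylglyoxal and glycation end products, 5 were tested and 0 passed by limma (0 and 1 at an unadjusted p under 0.05). Among them were the glyoxalase Glo1 at 26.2 to 32.9 FPKM and Park7 at 19.9 to 22.9. Ager, also tested, could not be read apart from Gpsm3 and Pbx2, with which it shared a locus. The osmolyte list had 4 of 5 genes tested. Its taurine transporter Slc6a6 measured 98.5 and 96.9 FPKM in HG, 79.98 and 83.0 with rFGF1WT and 81.3 and 82.0 with rFGF1ΔHBS, falling by 0.26 log2 units with each protein (SE 0.04 in both, limma adjusted p = 0.0482 and 0.0488), a call lost with each library left out (adjusted p = 0.0881 to 0.167 over both comparisons). It was also lost without the filter (0.103 and 0.101), after median-ratio scaling (0.0801 and 0.0766), with only the 4 libraries compared (0.0946 and 0.0871) and under both other variance models (0.0501 to 0.0828). Nfat5, the osmotic transcription factor, measured 8.85 to 9.22 FPKM in HG and 9.09 to 11.0 with FGF1.

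Of 2 genes often taken as references, Gapdh overlapped between groups at 27.4 to 48.1 FPKM. Actb, cytoplasmic actin, measured 857 and 1078 FPKM in HG, 1788 and 1699 with rFGF1WT and 1507 and 1723 with rFGF1ΔHBS, rising by 0.86 log2 units with rFGF1WT (limma adjusted p = 0.0450) and differing by 0.74 with rFGF1ΔHBS (adjusted p = 0.0574). FPKM are relative to the total of a library, and rescaling the libraries by median ratios left Sord as the 1 gene of the 8 past the threshold with each protein but ended the calls for Arrdc3 and Slc6a6 given above.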

How the data were processed

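The 6 libraries of 3 groups were assigned by their labels. The authors deposited FPKM per locus, and their processing notes name HISAT2 2.0, StringTie 1.3.0, Bowtie 0.12.2 and the build mm8, without roles. Strand use in counting is not given in the sources used here, and reads of paralogs or overlapping genes may be divided in ways the table does not show. Columns describing each locus (KEGG terms) were read, and no per-sample column was left unused. Positions are those of GENCODE M21 (GRCm38), matched through Ensembl transcripts, of which 99.6% were found.

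From the deposited values, limma 3.58.1 (R 4.3.3; lmFit, contrasts, eBayes with a trend) was run on log2(FPKM + 1) for loci averaging at least 1 FPKM, in 1 fit of 6 libraries with 3 residual degrees of freedom. The fit was tested on simulated data. G6pc2, below the filter, was taken from the unfiltered fit. Intervals are at 95% and not adjusted. Tables were made with Python 3.11.15. Alternatives changed the pseudocount, filter, scaling, libraries, variance model and replicate block.

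Named were all 10 genes, list genes with an adjusted p under 0.05 or, failing 2 of these, those of highest mean, reference genes, markers, and the 3 loci most like Txnip and Arrdc4. Mlxipl, Akr1b7, Akr1b8, Akr1b10, Txnrd1, Renbp, Slc5a3, Synpo, Pfkm and Hexa were named outside this rule after their values were seen. Ager and Amdhd2 were named only because their loci were merged with other genes. The genes and lists were chosen with earlier results of these data known.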

Additional observations from a re-analysis of the deposited data

How the results depend on the processing

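Sord was the 1 gene of the 8 tested past the threshold in each comparison with HG under 10 alternatives, and 0 genes passed with the replicate block (Sord log2 difference -1.09 and -1.10, limma adjusted p = 0.0698 and 0.0713). With single libraries left out the number was 0 to 1 in both comparisons. The block, fitted on 2 residual degrees of freedom, was not the main design, because libraries with the same number did not deviate together (r = -0.02 for HG and rFGF1WT, 0.10 for HG and rFGF1ΔHBS, -0.05 for the proteins). With it, 39, 36 and 6 loci passed in the 3 comparisons against 107, 95 and 37 without it, and 41, 39 and 6 against 654, 661 and 58 at the adjusted p alone. It also lost the calls for G6pc2, Arrdc3, Khk and Slc6a6 and not that for Txnrd3 (adjusted p = 0.0258 and 0.0292).

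With a mean FPKM of at least 5, loci past the threshold numbered 69 and 64 for rFGF1WT and rFGF1ΔHBS against HG and 18 between the proteins. In the same order they numbered 152, 151 and 40 with 0.1 added, and 89, 84 and 13 with only loci above 0 everywhere. With single libraries left out they were 101 to 155, 104 to 133 and 43 to 103. At the adjusted p alone the counts for rFGF1WT and rFGF1ΔHBS were 407 and 386 without the filter, 170 and 189 with only the 4 libraries compared, and 134 to 195 and 118 to 198 with single libraries left out. Between the proteins they were 31 with a mean of at least 5, 19 with only loci above 0 everywhere and 43 to 107 with single libraries left out. A lone library was assumed to vary like the other groups, and the causes of these shifts were not tested.

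Signs turned only for uncalled differences. For Ogt with rFGF1ΔHBS the difference was 0.027 after median-ratio scaling and 0.0084 after quantile normalization. With single libraries left out, differences from HG with rFGF1WT ranged from -0.025 to 0.074 for Arrdc4, -0.32 to 0.77 for Gfpt1 and -0.13 to 0.22 for Ogt. Those with rFGF1ΔHBS ranged from -0.052 to 0.096 for Arrdc4, -0.015 to 0.55 for Mlx, -0.10 to 0.018 for Mlxip, -0.67 to 0.42 for Gfpt1 and -0.18 to 0.17 for Ogt. Those between the proteins ranged from -0.047 to 0.19 for Txnip, -0.076 to 0.072 for Arrdc4, -0.81 to 0.10 for Gfpt1, -0.21 to 0.11 for Ogt, -0.11 to 0.075 for Sord and -0.032 to 0.20 for G6pc2.

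In all, 448 of 549 recomputed differences of single genes kept their direction and side of the threshold, 75 lost a call, 4 gained 1 and 22 changed sign. The sum over several loci of a symbol was not run, since each of the 10 genes has 1 locus. The unfiltered settings for G6pc2 and the read-step estimate of depth were chosen after the data were seen. With 2 libraries per group, differences smaller than the intervals given were not detectable.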

Other observations

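The pathway terms that the table attaches to each locus widen the view of the fructose and hexosamine routes, and both terms were chosen for this purpose with the values above known. Fructose and mannose metabolism holds 34 loci, of which 27 were tested. With rFGF1WT 3 of them were lower at an adjusted p under 0.05 and 0 higher, Khk, Pfkm and Sord, and with rFGF1ΔHBS 2 were lower, Pfkm and Sord, beside 6.19% and 6.26% of all loci in either direction. At an unadjusted p under 0.05 there were 9 of the 27 with each protein, beside 24.8% and 24.9% of all loci. The median log2 difference of the 27 was -0.10 and -0.02. Pfkm, the muscle form of phosphofructokinase, measured 45.2 and 45.7 FPKM in HG, 32.5 and 29.2 with rFGF1WT, and 31.2 and 32.5 with rFGF1ΔHBS. It fell by 0.55 and 0.50 log2 units (limma adjusted p = 0.0262 and 0.0323), with all 4 FGF1 libraries below both HG libraries.

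Amino sugar and nucleotide sugar metabolism holds 45 loci, of which 39 were tested. With rFGF1WT 1 was lower, Hexa, the alpha subunit of the lysosomal hexosaminidase, and with rFGF1ΔHBS 0 passed by limma, against 13 and 12 at an unadjusted p under 0.05, beside 24.8% and 24.9% of all loci. Hexa measured 57.5 and 58.9 FPKM in HG, 43.9 and 41.0 with rFGF1WT, and 48.3 and 46.8 with rFGF1ΔHBS, falling by 0.45 log2 units with rFGF1WT (limma adjusted p = 0.0262). Between the proteins 0 of the 39 passed by limma and 1 had an unadjusted p under 0.05. Pfkm and Hexa were named after their values were seen.

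Among genes of the lists, Renbp, an epimerase of N-acetylglucosamine, lay in a merged locus with L1cam, Arhgap4 and Naa10, whose value was lower by -0.31 and -0.28 log2 units (limma adjusted p = 0.050 and 0.0591). Slc5a3, the inositol transporter, shared its locus with Mrps6. That locus measured 2.82 and 2.65 FPKM in HG, 2.44 and 9.48 with rFGF1WT, and 5.62 and 10.2 with rFGF1ΔHBS, and its libraries within a group differed more than the HG libraries did. Synpo, synaptopodin of the podocyte cytoskeleton, measured 9.58 and 10.2 FPKM in HG, 5.45 and 4.01 with rFGF1WT, and 4.84 and 6.83 with rFGF1ΔHBS, without passing (adjusted p = 0.0787 and 0.131).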
